A study of Mus musculus with 21 samples.

Results

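Natural killer (NK) cells were singled out from single-cell RNA sequencing of melanoma-bearing and unchallenged mice. A cell was taken as an NK cell when it carried a UMI of at least 3 of the 6 genes Nkg7, Gzma, Prf1, Klrb1c, Ncr1 and Klre1, including 1 of the last 3, and no UMI of Cd3e, Cd3g, Cd3d, Cd79a, C1qa, S100a8 or Col1a2. A UMI (unique molecular identifier) stands for 1 captured RNA molecule. The rule found 992 cells among the 51511 cells of 12 libraries, in a series of 100359 cells and 16 libraries once identical libraries were counted once.

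The hosts were mT/mG mice, in which every cell carries membrane-bound tdTomato as long as no Cre is present. MT-ret melanoma fragments were placed under the skin of young adult male and female mice, the primary tumor was resected, and lung metastases were collected later. Unchallenged lung came from mice without a tumor, whose age and sex the sources used here do not state. The tumor microenvironment (TME) and the lung were dissociated, cryopreserved, thawed and sorted by 1 of 2 gates. Both gates took live cells with tdTomato, and the second also removed cells with CD45, but no source used here says which library had which gate. NK cells carry CD45, so the number of NK cells in a library and the gate cannot be told apart. Replicates 1 to 3 of a tumor tissue form 1 library, which for the metastasis holds 2 mice, and every other library is 1 mouse.

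NK cells are innate lymphocytes that kill stressed, infected or transformed cells without prior priming and without a rearranged antigen receptor. They weigh signals from activating receptors against signals from inhibitory receptors for MHC class I, and they release perforin and granzymes together with interferon gamma and chemokines. In the mouse lung most NK cells are circulating, mature cells, and NK cells are known for limiting the seeding of melanoma in that organ.

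Klrb1c and Klre1, which helped to choose the cells, belong to the Klr family of lectin-like receptors. Of the 17 Klr family genes examined, all 17 lie on chromosome 6 of GRCm38 (GENCODE vM21), and 16 of them lie in the NK gene complex, between the start of Klrb1a at 128609227 and the end of Klra1 at 130386874. Klrg1 lies apart, at 122270596 to 122282882 of that chromosome. Ncr1, which encodes the activating receptor NKp46, lies on chromosome 7. The 250 bases before the start of 3 of the 6 choosing genes are shown because they share the letters TGTGGTT, the core that RUNX transcription factors bind, on either strand. Capitals mark the match. The sequences are those of RefSeq on GRCm38.p6, at chr7:4337465-4337714 (+) for Ncr1, chr6:129577963-129578212 (+) for Klre1 and chr13:113100982-113101231 (-) for Gzma.
Ncr1: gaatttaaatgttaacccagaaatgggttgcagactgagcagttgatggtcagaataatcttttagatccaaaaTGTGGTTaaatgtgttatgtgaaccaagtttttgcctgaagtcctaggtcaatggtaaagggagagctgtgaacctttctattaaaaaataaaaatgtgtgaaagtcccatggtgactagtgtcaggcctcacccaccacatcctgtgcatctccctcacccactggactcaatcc
Klre1: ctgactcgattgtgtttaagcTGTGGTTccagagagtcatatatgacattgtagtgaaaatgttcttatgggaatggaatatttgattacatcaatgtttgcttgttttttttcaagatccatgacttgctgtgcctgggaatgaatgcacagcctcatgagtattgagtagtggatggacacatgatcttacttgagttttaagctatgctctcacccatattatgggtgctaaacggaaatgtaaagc
Gzma: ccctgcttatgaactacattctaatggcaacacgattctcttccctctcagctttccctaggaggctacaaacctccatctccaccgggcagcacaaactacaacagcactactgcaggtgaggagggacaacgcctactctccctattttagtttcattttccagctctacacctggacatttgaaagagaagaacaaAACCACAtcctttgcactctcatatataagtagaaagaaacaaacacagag
The same letters occurred in 4.39% of 32817 promoter windows of that length. A second window of Klre1, for a later start, did not hold them. GENCODE vM21 starts Klre1 earlier, at 129577905, so both windows lie within that gene. TGTGGTT was not found in the windows of Klrb1c, Prf1 and Nkg7, which says only that these letters are not in those windows. The windows were also searched for AP-1, CRE, kappaB, T-box and ETS letters. The Nkg7 window held the T-box letters TCACACC, which occurred in 3.33% of windows. The 3 windows shown were picked for their match, so enrichment was not tested.

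The cells were spread very unevenly over the libraries. In the lung metastasis TME, replicates 1 to 3 held 25 NK cells among 785 cells and replicate 4 held 62 among 661, while replicate 5 held 2 among 5166 and replicate 6 held 1 among 1036. The counts of this replicate 6 were also deposited under the name of a sorted melanoma library, so which sort it holds is uncertain. This library is in no main comparison of levels or of lymphocyte shares below. It does enter the alternative with all libraries that hold a cell of the rule. It also enters the alternative with a lower minimum of lymphocytes. In unchallenged lung, replicate 1 held 4 NK cells among 1326 cells, replicate 4 held 514 among 4085, replicate 5 held 159 among 6009 and replicate 6 held 222 among 25966. The highest shares, 12.6% in lung replicate 4 (exact 95% binomial interval 11.6% to 13.6%) and 9.38% in metastasis replicate 4 (7.27% to 11.9%), came from the same run, run 2.

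Primary tumor TME held almost none. There were 2 NK cells among 668 cells in replicates 1 to 3 and 1 among 3123 in replicate 4. Replicates 5 and 6 held 0 of 303 and 0 of 2383 cells, which allows shares of up to 0.990% and 0.126%. The intervals and these limits cover counting error only. The 4 primary tumor libraries also held few other lymphocytes, at 16 T cells and 9 B cells in all.

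**Figure D1:**
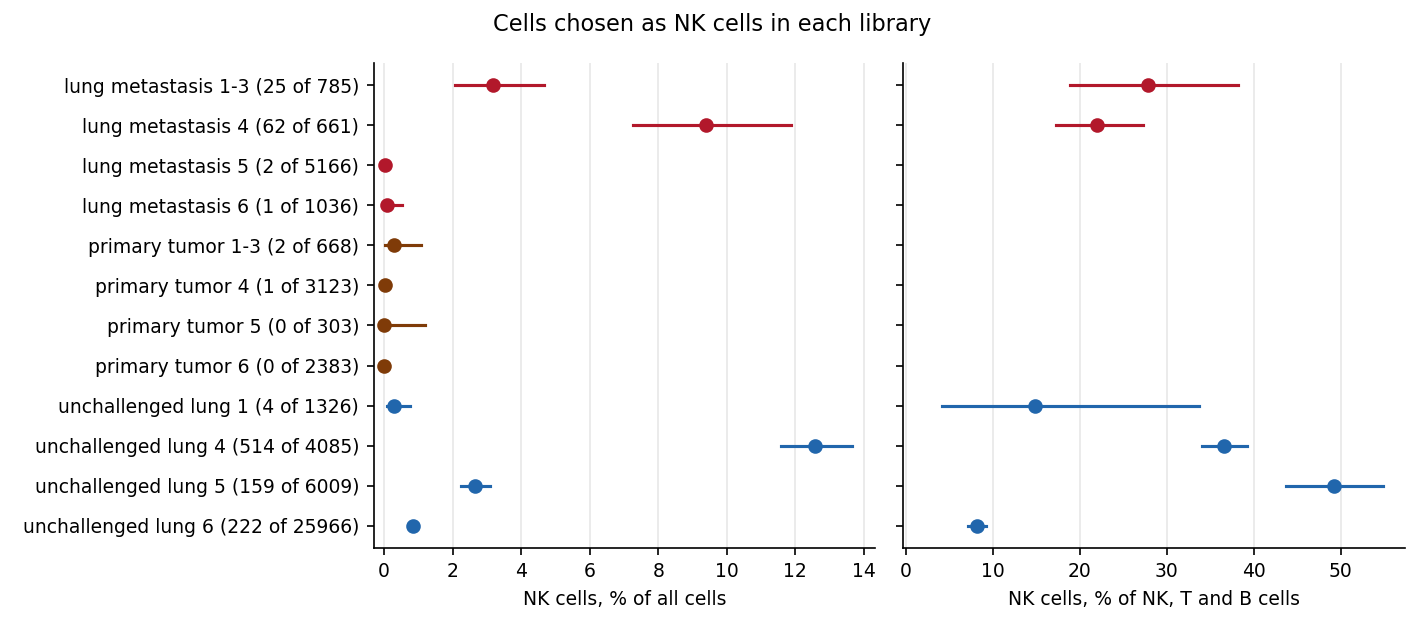
Cells chosen as NK cells in the 12 libraries, as a percent of all cells (left) and of NK, T and B cells together (right, libraries with at least 20 such lymphocytes). Points are libraries and lines exact 95% binomial intervals; primary tumor libraries sit at or below 0.299% of all cells, and 5 libraries hold nearly all the NK cells.

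Because all lymphocytes carry CD45, NK cells were also counted among lymphocytes (NK, T and B cells), in the 6 libraries with at least 20 of them. The NK share was 27.8% of 90 lymphocytes in metastasis replicates 1 to 3 and 22.0% of 282 in metastasis replicate 4. It was 14.8% of 27 in lung replicate 1, 36.6% of 1405 in lung replicate 4, 49.2% of 323 in lung replicate 5 and 8.14% of 2728 in lung replicate 6. Both metastasis values lay inside the range of the lung. The NK rule leaves out cells with a UMI of S100a8, C1qa or Col1a2, and the T and B cell rules do not. Cells with the NK genes that were excluded for a CD3 gene or Cd79a could count as T or B cells. Without the S100a8 exclusion, 728 instead of 222 cells fit the rule in lung replicate 6, and 224 instead of 159 in lung replicate 5. The metastasis libraries then held 27 and 64 instead of 25 and 62. The low end of the lung range thus depends on the rule, and the share without this exclusion was not tested. The means were 24.9% ± 4.10 (SD, n = 2) and 27.2% ± 19.1 (SD, n = 4), with p = 0.933 by an exact two-sided permutation test, whose smallest possible p in this design is 0.133. In run 2 the share was lower in the metastasis than in the lung, at 22.0% against 36.6%, and in run 1 it was higher, at 27.8% against 14.8% in the 27 lymphocytes of lung replicate 1. The mean of both within-run differences was -0.82 percentage points, with p = 1 by an exact permutation within runs, whose smallest possible p is 0.5. No primary tumor library reached 20 lymphocytes.

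The choosing genes are given as a description. All 6 genes were seen in 625 of the 992 cells and 3 of them in 103. A further 115 cells with 2 of the genes fell just outside, at a median of 1558 UMIs against 1327 for the members with 3 genes. Gzma was seen in 98.3% of members, Nkg7 in 93.5%, Prf1 in 87.2%, Klrb1c in 86.9%, Klre1 in 84.2% and Ncr1 in 80.3%. Of the members, 23 share their barcode with a cell of another library, 10 of them within a run.

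The label was checked against 8 defining NK genes that the rule did not use, in the 5 libraries with at least 20 NK cells (982 cells). So that depth would not set the shares, each cell was thinned to 1000 UMIs, and free RNA was gauged by the share in endothelial cells of the same libraries. Ccl5, a chemokine, was seen in 88.7% to 100% of NK cells and in at most 7.77% of endothelial cells. Tyrobp, the DAP12 signalling adaptor, was seen in 66.1% to 95.8% against at most 32.8%, and Klrd1, the CD94 receptor chain, in 33.0% to 62.5% against at most 1.62%. Klrk1 (NKG2D) was seen in 25.6% to 69.4%, Il2rb, the receptor chain for interleukin 2 and 15, in 35.5% to 59.6%, and Ctsw, a cathepsin of cytotoxic granules, in 23.2% to 44.6%. The transcription factors Eomes and Tbx21 were seen in 17.7% to 29.2% and 8.33% to 21.8% of NK cells, and in at most 0.498% of endothelial cells. For each of the 8 genes the lowest NK share over the 5 libraries lay above the highest endothelial share. T cells of the same libraries carried some of these genes too, with Ccl5 in 18.6% to 58.3% of them. Cells with the NK genes that were excluded for a CD3 gene could count as T cells. In lung replicate 4, 716 cells carried the NK genes before the exclusion, 109 of these carried Cd3d, and 457 cells counted as T cells. How many of the T cells carried the NK genes was not counted. The lowest NK share lay above the highest T cell share for 7 of the 8 genes, by little for Il2rb (35.5% and 32.7%) and Klrk1 (25.6% and 22.0%), and for Tbx21 both were 8.33%.

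Genes of other lymphocytes were scarce, but those of the T cell receptor beta chain were not. Trac was seen in at most 1.61% of NK cells, Cd4 in at most 0.198%, and Cd5 and Cd6 in at most 0.594%. Trbc1 was seen in 8.33% to 33.9% and Trbc2 in 4.17% to 19.6%, whereas endothelial cells reached 2.91% and 1.94%. The constant region of the beta chain is known to be transcribed in NK cells without a rearranged receptor. Il5 and Il13, cytokines of type 2 innate lymphoid cells, and the mast cell and basophil genes Mcpt8, Cpa3 and Ms4a2 had no UMI in any of the 5 libraries. The 8-gene list of type 2 innate lymphoid cells as a whole was not at 0, and summed to 72.9 and 108 CPM in the metastasis and 137, 213 and 285 CPM in the lung. Its gene Gata3, which T cells and NK cells also express, had UMIs in all 5 libraries.

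RNA of other cells differed between the libraries. The summed level of 7 epithelial markers was 437 and 169 CPM (UMIs of a gene per 1000000 UMIs of the summed NK cells) in the metastasis and 35.7, 3933 and 26757 CPM in lung replicates 4, 5 and 6. The club cell gene Scgb1a1 was seen in 96.8% of NK cells of lung replicate 5 and in 96.4% of its endothelial cells, and in 82.8% and 83.8% of those of lung replicate 6. Lung replicate 6 stood apart in depth and in mitochondrial UMIs (median 5.66%) too, with a median of 1755 UMIs per NK cell against 4710.5 to 5090 in metastasis replicate 4 and lung replicates 4 and 5, and 2047 in metastasis replicates 1 to 3. In lung replicate 6, 1001 cells carried the NK genes before the exclusion and 689 of these carried S100a8, a neutrophil gene also seen in 43.5% of the endothelial cells of that library. Xist was at 0 CPM in lung replicate 5 and at 711 to 1197 CPM in the NK cells of the other 4 libraries.

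**Figure D2:**
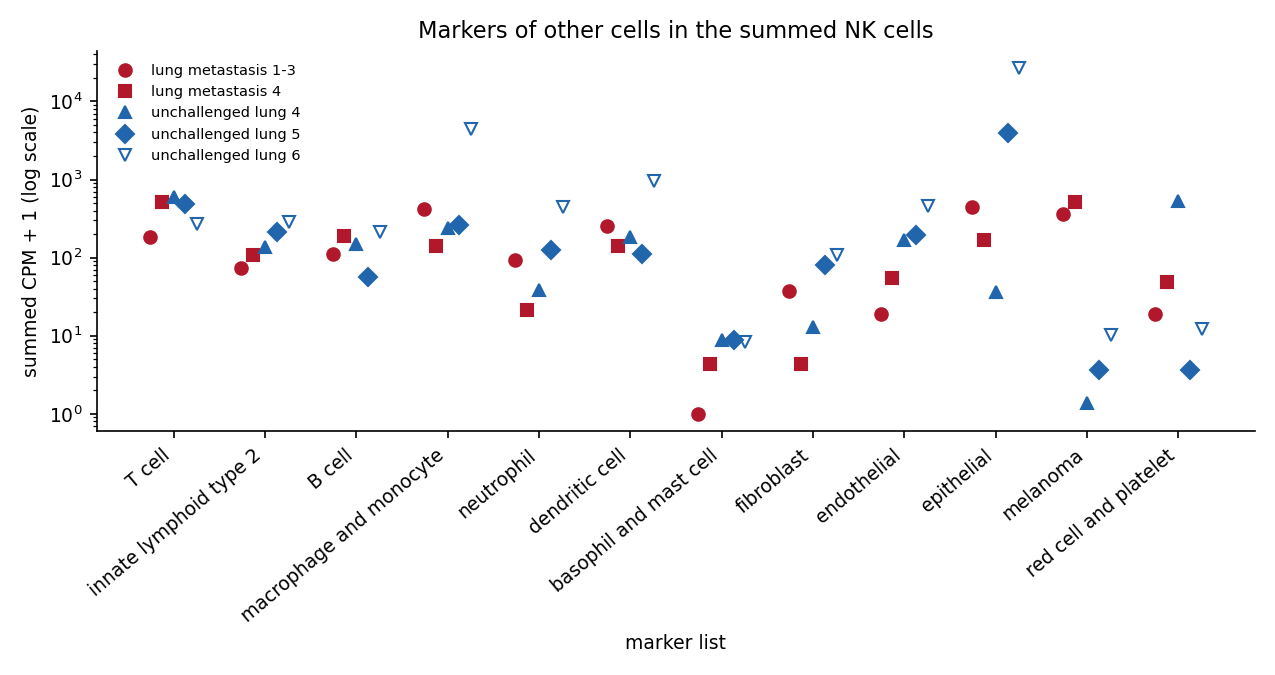
Summed CPM plus 1, on a log axis, of 12 marker lists of other cells in the NK cells of 5 libraries. Red symbols are lung metastasis and blue symbols unchallenged lung, with replicate 6 open; epithelial and macrophage markers are highest in lung replicate 6 and melanoma markers are highest in both metastasis libraries.

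Among the genes with a mean of at least 100 CPM, those that stood out most from all other cells of the same library in each of the 5 libraries were again surface receptors and granule genes. This is a description, since the same cells were chosen by related genes. Ranked by the lowest log2 ratio over the 5 libraries, the first genes outside the rule were Klrb1a, Cma1, Klra9, Klra7, Klra4, Styk1, Klrc2, Klri2, Klra8 and Gzmb, at lowest log2 ratios of 4.29 to 3.74 (pseudocount 1 CPM). Cma1 encodes a chymase best known from mast cells, and it was at 456 and 340 CPM in the metastasis and 369, 444 and 237 CPM in the lung. Against T cells of the same library the first genes were Klri2, Klra8, Klrb1a, Klra4, Klrb1b and Adamts14, with lowest log2 ratios of 3.08 to 2.82.

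**Figure D3:**
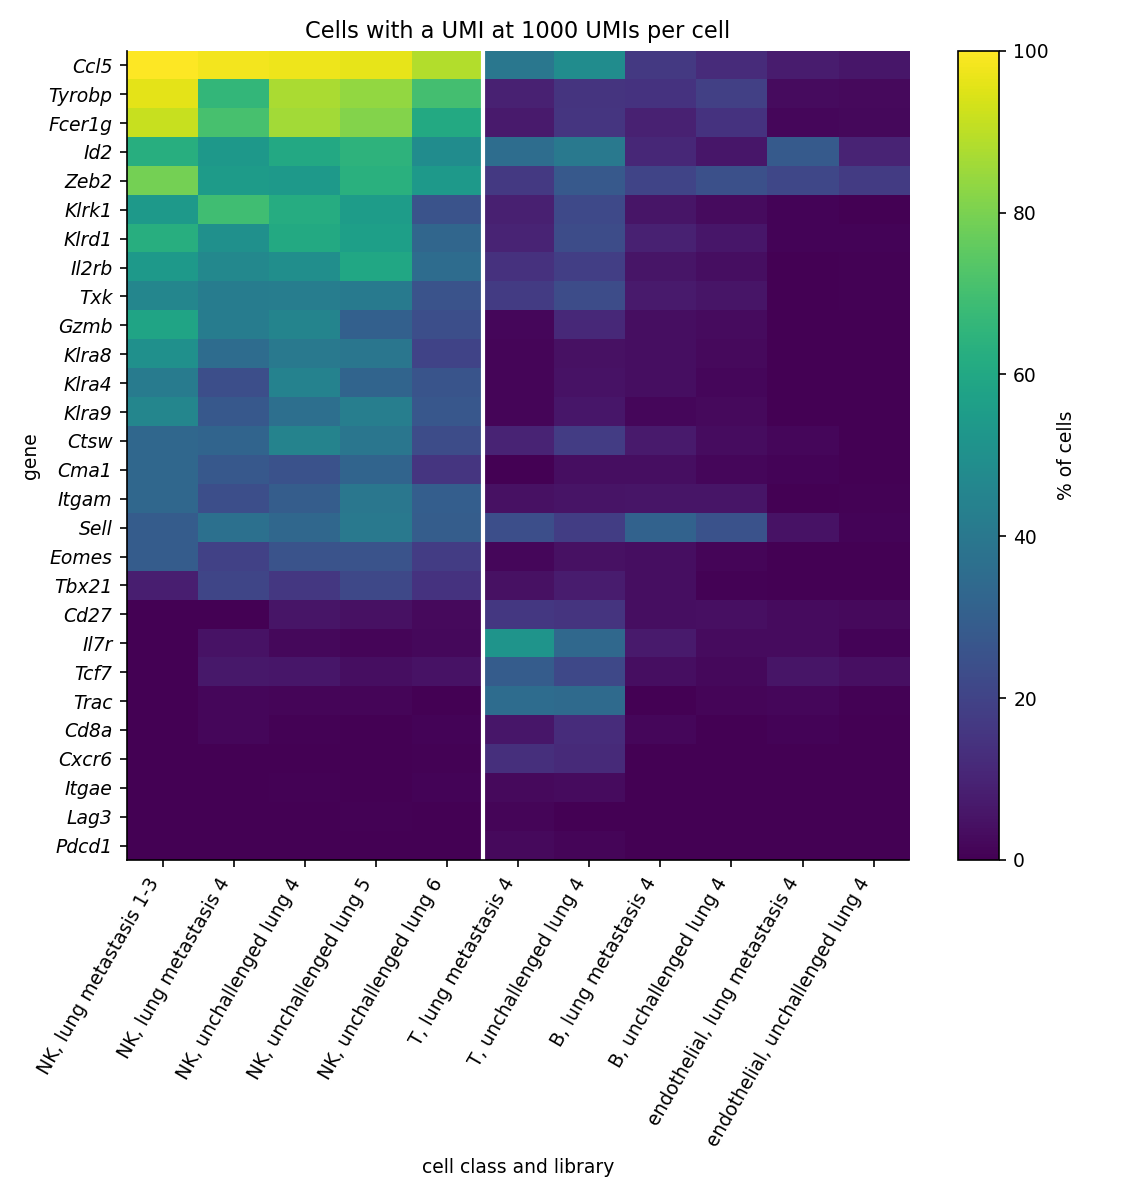
Percent of cells with a UMI of 28 genes after thinning to 1000 UMIs per cell, for NK cells of 5 libraries (left of the white line) and for T, B and endothelial cells of the 2 run 2 libraries. The upper rows are bright in NK cells, as for Ccl5 at 88.7% to 100%, and the rows from Cd27 down are dark in NK cells, as for Pdcd1 at 0%.

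Activating receptors outside the rule were led by NKG2D and the Ly49 family. Klrk1 stood at 911 and 1116 CPM in metastasis replicates 1 to 3 and 4, and at 1061, 811 and 417 CPM in lung replicates 4, 5 and 6. Klra8, the Ly49H receptor that recognizes a cytomegalovirus protein, stood at 857 and 667 CPM in the metastasis and 826, 979 and 478 CPM in the lung. The tissues overlapped for both genes, with metastasis replicate 4 highest for Klrk1. Klra4 (Ly49D) was at 518 to 1130 CPM and Klrc2 (NKG2C) at 273 to 534 CPM. Slamf6, Crtam and Fcgr3 stayed at or below 57.0 CPM in each library.

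Inhibitory receptors of the Ly49 and NKG2 kind were present, while the checkpoint receptors of exhausted T cells were nearly absent. Klra9 was seen in 27.1% to 45.8% of NK cells, Klra7 in 19.7% to 29.2%, Klrc1 (NKG2A) in 8.33% to 25% and Klrg1 in 12.9% to 24.4%. Pdcd1 (PD-1) had no UMI in any NK cell of the 5 libraries. Tigit and Lag3 stayed at or below 3.37 CPM, and Ctla4 at or below 1.55 CPM. Havcr2 was at 0 CPM in both metastasis libraries and at 1.94, 1.29 and 25.7 CPM in the lung, where lung replicate 6 also held the most macrophage RNA.

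Single NK cells carried several Ly49 genes at a time. Counting Klra1, Klra3, Klra4, Klra7, Klra8 and Klra9, at least 1 was seen at 1000 UMIs in 95.8% and 72.6% of the metastasis cells and in 85.1%, 87.2% and 67.0% of the lung cells. At least 3 were seen in 16.7% and 11.3% of the metastasis cells and in 26.3%, 23.7% and 9.36% of the lung cells. At full depth, at least 3 were seen in 44.0% and 41.9% of the metastasis cells and in 60.7%, 57.9% and 21.6% of the lung cells. These genes are close copies, and reads could be split or misassigned between them, so the count per cell is uncertain.

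Adaptors and kinases of the activating pathway were abundant. Tyrobp reached 4465 and 1621 CPM in the metastasis and 2923, 2447 and 1427 CPM in the lung. Fcer1g, the Fc receptor gamma chain, was at 1147 to 3171 CPM and Hcst (DAP10) at 336 to 802 CPM. Txk, a kinase of the Tec family, was seen in 25.6% to 45.8% of NK cells. Lat, the T cell linker, was at 18.2 to 64.0 CPM and seen in at most 5.74% of NK cells, against 9.69% to 29.0% of T cells in the same libraries.

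The granule program was broad. Gzmb stood at 729 and 647 CPM in the metastasis and 898, 646 and 375 CPM in the lung, and the metastasis values lay within that range. Serpinb9, which protects the cell from its own granzyme B, was at 263 to 419 CPM, and Fasl, the ligand of the death receptor Fas, was at 71.7 to 162 CPM. Gzmk and Gzmc, granzymes of other lymphocyte states, stayed at or below 3.88 CPM, and Tnfsf10 (TRAIL) at or below 22.1 CPM.

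Among the stage genes, Itgam, S1pr5, Spn and Zeb2 of the mature NK cell list had higher levels than Cd27, a marker of earlier stages. Zfp683 of the same list lay below Cd27 in the lung. Xcl1, of the list of immature NK cell genes, lay above Cd27 in each of the 5 libraries. Itgam (CD11b) stood at 365 and 398 CPM in the metastasis and 361, 531 and 434 CPM in the lung. S1pr5, a receptor used to leave the marrow, was at 164 to 274 CPM, Spn (CD43) at 436 to 584 CPM and Zeb2, a regulator of terminal maturation, at 826 to 1189 CPM. Cd27 was at 0 and 16.9 CPM in the metastasis and 40.7, 38.8 and 31.3 CPM in the lung. At full depth Cd27 without Itgam was seen in 0 of 25 and 1 of 62 metastasis cells, and in 25 of 514, 5 of 159 and 7 of 222 lung cells. Neither gene was seen in 13 of 25 and 20 of 62 metastasis cells and in 111 of 514, 40 of 159 and 110 of 222 lung cells, so many cells could not be staged.

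Genes of group 1 innate lymphoid cells and of tissue residency were mixed. Cxcr6 and Itgae stayed at or below 5.51 CPM in each library and Inpp4b at or below 11 CPM. Zfp683 (Hobit), which was listed with the mature NK cell genes, stayed at or below 1.84 CPM. Rgs1 of the residency list was seen at 1000 UMIs in 24.0% of metastasis replicate 4 cells with Ccl3 and in 35.1% of those without. In metastasis replicates 1 to 3 these shares were 7.14% and 10%. They were 16.1% and 16% in lung replicate 4, 10.3% and 13.7% in lung replicate 5, and 5.41% and 2.41% in lung replicate 6. The tissues thus overlapped. Itga1 (CD49a) was at 0 and 43.8 CPM in the metastasis and 26.0, 87.9 and 80.9 CPM in the lung, and it was seen in up to 79.1% of endothelial cells. Cd69 was at 36.5 and 125 CPM in the metastasis and 140, 163 and 68.0 CPM in the lung. Few cells carried Mki67 or Top2a, at 3 of 25 and 3 of 62 in the metastasis and 36 of 514, 14 of 159 and 16 of 222 in the lung at full depth.

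Lung metastasis TME was compared with unchallenged lung over the summed NK cells of 2 and 3 libraries. The metastasis samples held, as the paper states, only a small part of neighbouring tissue without tumor. The comparison thus sets metastasis tissue against lung, and not a lung with tumors against a lung without. The only gene to pass (adjusted p below 0.05, edgeR quasi-likelihood F test) was Dct, a pigment gene of melanoma cells, and no gene of the NK lists did. That is 1 of 6930 genes tested, or 0.0144%. At an unadjusted p below 0.05 there were 291 genes (4.2%), of which 86 (1.24% of those tested) had a higher and 205 (2.96%) a lower value in the metastasis. DESeq2 called 2 genes. With counts simulated at these means and depths, 200 genes were changed, all drawn from those with a mean above 100 CPM. The test recovered 12% of the genes changed by 1 on the log2 scale, 89% of those changed by 2 and 99.5% of those changed by 3. Recovery of genes at lower levels, or with fewer genes changed at once, was not tested. The simulated spread between libraries followed the level of a gene only, so recovery of genes with a larger spread was not tested. In the data, 7 epithelial markers tested had a median log2 fold change of -5.32, and 0 of them passed. With primary tumor TME no test could be made, since no library had 20 NK cells. The 5 libraries are separate samples in the labels, and both tissues differ in run and free RNA as well. The mice with metastases had also had a primary tumor resected.

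Dct stood at 200 and 378 CPM in the metastasis (11 and 112 UMIs) and at 0.388, 2.58 and 5.51 CPM in the lung (1, 2 and 3 UMIs). The log2 fold change was 7.31 ± 0.61 (SE; adjusted p = 0.000875 by edgeR). The fold rests on 1 to 3 UMIs in each lung library, and the call was lost without metastasis replicates 1 to 3 (7.60, adjusted p = 0.140 by edgeR) or metastasis replicate 4 (6.30, adjusted p = 0.835 by edgeR). At 1000 UMIs Dct was seen in 33.3% and 32.3% of the metastasis NK cells, and in the same 2 libraries in 25% and 38.3% of T cells, 31.0% and 38.9% of B cells and 32.6% and 30.1% of endothelial cells. Syt4, also in the melanoma list, had 7 and 14 UMIs in the metastasis and none in the lung, and missed the threshold (adjusted p = 0.208 by edgeR). The next smallest p-values, all missing the threshold, were those of Cldn5, Ccl3 and Khdc1a. Cldn5, an endothelial junction gene, had no UMI in the metastasis and stood at 43.0, 36.2 and 114 CPM in the lung. Khdc1a stood at 146 and 115 CPM in the metastasis and 50.8, 46.5 and 27.6 CPM in the lung.

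Among the genes of the NK lists the smallest p-values belonged to the chemokines Ccl3 and Ccl4, which attract other leukocytes. Ccl3 stood at 1458 and 1466 CPM in metastasis replicates 1 to 3 and 4, and at 681, 434 and 208 CPM in lung replicates 4, 5 and 6. Ccl4 stood at 2770 and 2424 CPM in the metastasis and at 1335, 713 and 476 CPM in the lung. For both genes each metastasis library lay above each lung library, which was so for 24.2% of all genes tested in one direction or the other. The log2 fold changes were 1.64 ± 0.41 and 1.54 ± 0.40 (SE), and neither passed over all genes (adjusted p = 1.00 for both by edgeR, unadjusted p = 0.00203 and 0.00254). Without lung replicate 6, where 13 of 6466 genes passed (0.201%), Ccl3 and Ccl4 passed with log2 fold changes of 1.35 and 1.29 (adjusted p = 0.0318 and 0.0346 by edgeR). The others included Dct, Syt4, Cd63, Igkc and Gpnmb, which were higher in the metastasis, and Scgb1a1, Hspa1b, Hbb-bs, Cldn5 and As3mt, which were lower.

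Both genes lie on chromosome 11 of GRCm38 (GENCODE vM21), Ccl3 at 83647844 to 83649355 and Ccl4 at 83662584 to 83664683, on opposite strands. Ccl3 was seen at 1000 UMIs in 58.3% and 40.3% of metastasis NK cells and in 35.6%, 25% and 18.2% of lung NK cells. Without thinning the shares overlapped, at 64.0% and 58.1% in the metastasis and 61.5%, 52.2% and 24.8% in the lung. At 1000 UMIs Ccl3 was seen in at most 3.36% of endothelial cells, and in 0% of those of both metastasis libraries. For Ccl4 the NK shares at 1000 UMIs were 50.0% and 35.5% in the metastasis and 38.4%, 30.8% and 21.7% in the lung, so that these overlapped. The mean number of Ccl4 UMIs in a cell that had any was 6.50 and 6.32 in the metastasis and 3.18, 2.00 and 1.98 in the lung. In metastasis replicates 1 to 3, 1 cell of 25 held 36.2% of the Ccl3 UMIs and 43.4% of the Ccl4 UMIs. Without the top cell of each library the levels were 964 and 1199 CPM against 661, 394 and 189 CPM for Ccl3, and 1626 and 2158 CPM against 1196, 625 and 366 CPM for Ccl4 and the tissues did not overlap. In the same metastasis library the top 3 cells held 67.5% of the Ccl3 UMIs and 69.7% of the Ccl4 UMIs. Without the top 3 cells of each library the tissues overlapped, at 536 and 990 CPM in the metastasis against 630, 343 and 160 CPM in the lung for Ccl3. For Ccl4 these levels were 948 and 1783 CPM against 1080, 545 and 308 CPM.

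Both chemokines tended to be seen in the same cells. Of cells with a Ccl3 UMI, 64.3% and 56.0% in the metastasis and 53.3%, 48.7% and 40.5% in the lung also had a Ccl4 UMI, against 30.0%, 21.6%, 30.2%, 24.8% and 17.5% of cells without Ccl3. The order was the same in all 5 libraries. For Ifng the shares with and without Ccl3 were 28.6% and 30.0% in metastasis replicates 1 to 3, 36.0% and 24.3% in metastasis replicate 4, and 26.1% and 12.3%, 25.6% and 13.7%, and 18.9% and 7.23% in lung replicates 4, 5 and 6. The share was thus higher in cells with Ccl3 in 4 of the 5 libraries. Cells of 1 library are not replicates, so these are descriptions.

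**Figure D4:**
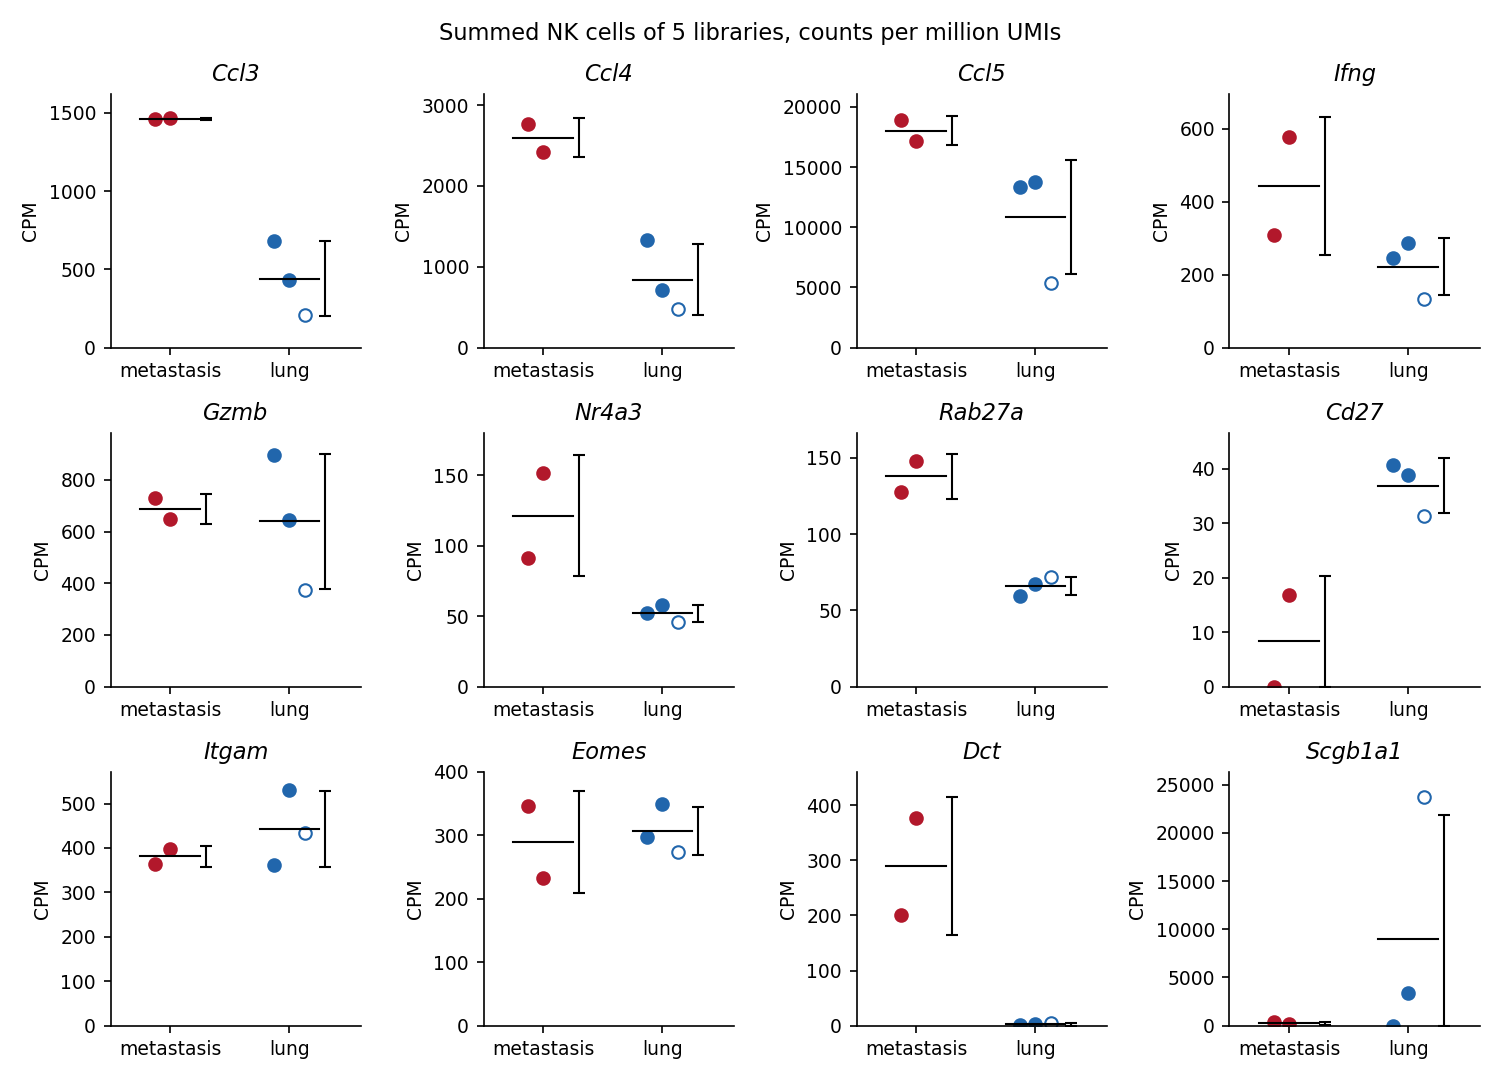
CPM of 12 genes in the summed NK cells of 2 lung metastasis libraries (red) and 3 unchallenged lung libraries (blue, replicate 6 open), on linear axes from 0. Horizontal lines are means and error bars SD, cut at 0; Ccl3 and Ccl4 lie higher in both metastasis libraries, Gzmb, Itgam and Eomes overlap, and Dct is near 0 in the lung.

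The other secreted factors were mixed. Ccl5, the most abundant, was at 18864 and 17165 CPM in the metastasis and 13364, 13745 and 5351 CPM in the lung (log2 fold change 0.66 ± 0.43, SE; unadjusted p = 0.148 by edgeR). Ifng was at 310 and 576 CPM in the metastasis and 245, 287 and 134 CPM in the lung, at a log2 fold change of 1.00 ± 0.37 (SE; unadjusted p = 0.0195 by edgeR). Neither gene overlapped between the tissues, as was so for 24.2% of all genes tested in one direction or the other, and neither passed over all genes. Without metastasis replicate 4 the log2 fold change of Ifng was 0.32. Xcl1, which attracts cross-presenting dendritic cells, was at 182 and 131 CPM against 304, 149 and 49.6 CPM. Tnf, Csf2, Lta and Il10 were at or below 7.35 CPM in each library. Of the 9 factors tested, 3 had an unadjusted p below 0.05, all higher in the metastasis, at a median log2 fold change of 0.38 against -0.05 over all genes tested, of which 1.24% were higher at that p.

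In the same run, run 2, metastasis replicate 4 stood against lung replicate 4 at 1466 against 681 CPM for Ccl3 and 2424 against 1335 CPM for Ccl4. For Ifng the values were 576 and 245 CPM. These are 1 library each, and the difference has no replicate check within the run.

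At an unadjusted p below 0.05, where 4.2% of all genes tested lay, there were 1 of 14 activating receptors, 0 of 10 inhibitory receptors, 0 of 17 adaptors and kinases, 0 of 19 transcription factors, 0 of 11 genes of mature NK cells and 0 of 7 genes of group 1 innate lymphoid cells and residency. None passed after adjustment by edgeR, nor did any of these without lung replicate 6. The activating receptor was Crtam, an adhesion receptor at 0 and 3.37 CPM in the metastasis and 23.3, 27.1 and 11 CPM in the lung. The median log2 fold changes of these 6 lists lay between -0.39 and 0.07.

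Among 13 granule genes 2 had an unadjusted p below 0.05, against 4.2% of all genes tested. Rab27a, which docks granules at the membrane, was at 128 and 148 CPM in the metastasis and 59.7, 67.2 and 71.7 CPM in the lung (log2 fold change 1.04 ± 0.31, SE; unadjusted p = 0.00592 by edgeR). Unc13d, which primes granules for release, was at 36.5 and 20.2 CPM against 57.0, 62.0 and 44.1 CPM. The genes lay in opposite directions, and the metastasis value for Rab27a rests on 7 and 44 UMIs. Unc13d rests on fewer UMIs in both metastasis libraries. Its log2 fold change was -1.27, and -0.74 without metastasis replicate 4. Rab27a, which also moves melanosomes in pigment cells, was seen at 1000 UMIs in 16.7% and 14.5% of metastasis NK cells and 6.53%, 8.97% and 4.43% of lung NK cells. In endothelial cells it was seen in 8.14% and 6.80% in the metastasis and 5.45%, 6.28% and 6.23% in the lung. The melanoma markers summed to 365 and 519 CPM in the metastasis NK cells and to 0.388, 2.58 and 9.19 CPM in those of the lung, and their part in this value was not tested.

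Of 12 genes of immature NK cells, 9 had a negative log2 fold change (median -0.34), as had 3756 of all 6930 genes tested (median -0.05), and the Cd27 gene alone had an unadjusted p below 0.05, against 4.2% of all genes. For Cd27 the log2 fold change was -1.50 ± 0.63 (SE; unadjusted p = 0.0354 by edgeR). The 2 metastasis libraries held 0 and 5 Cd27 UMIs. Thy1 was at 0 and 27 CPM in the metastasis and 39.2, 53.0 and 49.6 CPM in the lung.

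Among 15 trafficking genes, Ccr2, the receptor for monocyte chemokines, and Itgb7 were lower at an unadjusted p below 0.05, as were 2.96% of all genes tested. Ccr2 was at 182 and 87.6 CPM in the metastasis and 173, 192 and 314 CPM in the lung, and thus overlapped. Of 15 cytokine receptors 1 was higher at that p, against 1.24% of all genes, namely Ifnar1, at 200 and 80.9 CPM against 62.8, 53.0 and 55.1 CPM. Il18rap, part of the interleukin 18 receptor, was among the most abundant, at 510 and 620 CPM in the metastasis and 455, 782 and 445 CPM in the lung.

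Of 23 immediate early genes, 19 had a positive log2 fold change (median 0.22), as had 3174 of all 6930 genes tested (median -0.05). At an unadjusted p below 0.05, 2 of the 23 were higher, against 1.24% of all genes. Nr4a3, a nuclear receptor induced by receptor signalling, was at 91.1 and 152 CPM in the metastasis and 52.3, 58.1 and 46.0 CPM in the lung (log2 fold change 1.28 ± 0.33, SE; unadjusted p = 0.00272 by edgeR). Tnfaip3, a brake on NF-kappaB, was at 146 and 273 CPM against 143, 105 and 66.2 CPM. The libraries of the tissues did not overlap for either gene, as was so for 24.2% of all genes tested in one direction or the other. The values of Nr4a3 and Tnfaip3 in metastasis replicates 1 to 3 rest on 5 and 8 UMIs. Without metastasis replicate 4 the log2 fold changes were 0.65 for Nr4a3 and 0.30 for Tnfaip3. Fos, raised by tissue dissociation in many cell types, was at 401 and 1797 CPM in the metastasis and 1005, 736 and 581 CPM in the lung.

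Of 16 interferon-stimulated genes, 11 had a negative log2 fold change (median -0.56), against 3756 of all 6930 genes (median -0.05). At an unadjusted p below 0.05, 4 of the 16 were lower, among them Bst2, Ly6a and Ifi47, against 2.96% of all genes. Ly6a was seen in 90.3% of endothelial cells of a library and in at most 14.3% of NK cells, and 5 of 5 tested endothelial markers were also lower in the metastasis at an unadjusted p below 0.05. Bst2 also belongs to the dendritic cell list, of which 3 of 3 genes tested were negative. Bst2 is 1 of these 3, and their median of -1.46 is its own value. The summed level of that list, Bst2 included, was 255 and 142 CPM in the metastasis and 181, 111 and 967 CPM in the lung. The log2 fold change of Ifi47 was -0.21 without metastasis replicate 4 and -0.17 at 1000 UMIs. The part of endothelial and dendritic cell RNA in these values was not tested. Of 11 heat shock genes, 9 were negative (median -0.52) and 2 were lower at that p, and Hspa1b was at 255 and 158 CPM against 483, 778 and 199 CPM. Hspa1b passed without lung replicate 6, at a log2 fold change of -1.77 (adjusted p = 0.00371 by edgeR), and not with it.

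**Figure D5:**
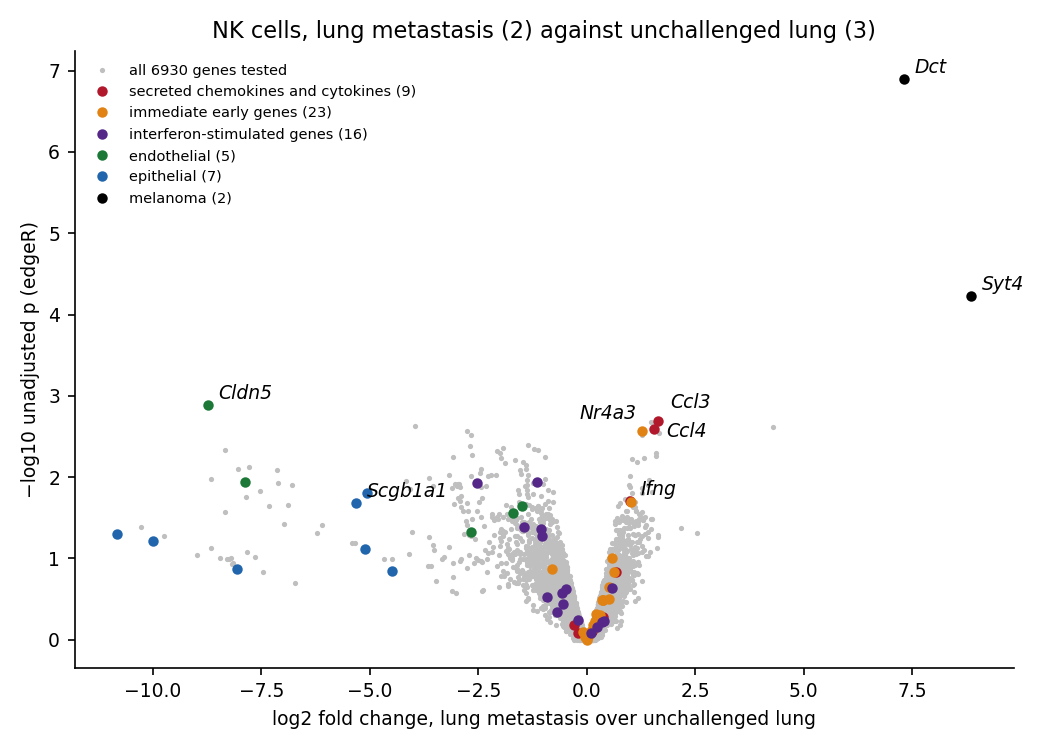
Log2 fold change of lung metastasis over unchallenged lung in NK cells against −log10 of the unadjusted edgeR p for 6930 genes, with 6 lists in color. Dct is the only gene past the adjusted threshold, Ccl3 and Ccl4 lie at 1.64 and 1.54, and endothelial and epithelial markers lie to the left.

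Of 16 genes of glycolysis, hypoxia and nutrient uptake, 11 had a positive log2 fold change (median 0.08), and 5 did not overlap between the tissues, against 24.2% of all genes. The 1 gene of these with an unadjusted p below 0.05, against 4.2% of all genes, was the glucose transporter Slc2a1, at 36.5 and 60.7 CPM in the metastasis and 25.2, 23.3 and 22.1 CPM in the lung. Its log2 fold change was 1.13, and 0.47 without metastasis replicate 4. Gapdh was at 310 and 317 CPM against 308, 288 and 257 CPM. Of 14 cell cycle genes, 10 had a negative log2 fold change (median -0.11), and 1 was lower at that p, against 2.96% of all genes, namely Mcm3, at 0 and 10.1 CPM against 29.1, 40 and 51.5 CPM.

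The few NK cells outside the 5 libraries are given by their UMIs, of which Gzma was used by the rule. The 2 cells of primary tumor replicates 1 to 3 held 8044 UMIs together, of which 200 were of Ccl5, 142 of Gzma, 12 of Ccl3 and 9 of Ifng. The 1 cell of primary tumor replicate 4 held 3479 UMIs, of which 54 were of Ccl5, 23 of Tyrobp, 2 of Gzma and 0 of Ccl3, Ccl4 and Ifng. The 4 cells of lung replicate 1 held 331 UMIs of Ccl5 and 2 of Ccl3 among 16257. These cells are too few for a level of a tissue.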

How the data were processed

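The counts deposited by the authors are UMIs per gene and cell, made with Cell Ranger 6.1.1 on GRCm38 and filtered for cells by the authors, whose notes name Seurat 3.2.2, with no normalization. Cells with the highest ribosomal and mitochondrial shares, and those with the fewest or most detected genes, had been removed at quantiles set by the authors. The percent of mitochondrial UMIs per cell was used as deposited by the authors. A deposited table of log-normalized values was not used. Library names with identical counts were merged, as 5 of 24 names repeated another, and libraries named in the labels as replicates 1 to 3 were kept as 1 library. The rule found 992 cells. The members and lists were chosen with earlier results of these data known. UMIs were summed per library with at least 20 members and tested with edgeR 4.0.16 (filterByExpr, TMM, quasi-likelihood F test, Benjamini-Hochberg over 6930 genes), with DESeq2 1.42.0 as an alternative. CPM are UMIs per 1000000 UMIs of the members of a library. The 2 metastasis libraries hold 54866 and 296655 NK cell UMIs and the 3 lung libraries 2579628, 774040 and 543972. With 54866 UMIs, 1 UMI is 18.2 CPM. Shares of cells were taken after thinning to 1000 UMIs, which left out 1, 0, 9, 3 and 19 cells of these libraries, and no doublet caller was run. T cells carried at least 2 of 5 T cell genes and B cells Cd79a with another B cell gene, and the lymphocyte share was compared by exact permutation over libraries. Library replicates may vary technically as well, and p-values measure only the spread between these samples. Genes were named when they belonged to the lists or, since fewer than 3 genes passed, had one of the 5 smallest p-values (Dct, Syt4, Cldn5, Ccl3 and Khdc1a, of which all but Dct missed the threshold). Xist, leading genes against other cells, and genes that passed only in an alternative were named as well. The scripts were tested on simulated data. Values of some genes are not reported here. Python 3.11.15 with scipy 1.17.1 and R 4.3.3 were used.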

Additional observations from a re-analysis of the deposited data

Results flagged for a closer look

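The share of NK cells in primary tumor replicates 1 to 3, at 0.299% of cells, lay apart from the other 3 primary tumor libraries at 0% to 0.032%. It rests on 2 cells, and the exact 95% interval is 0.0363% to 1.08%. Among the libraries of sorted melanoma cells, which the comparisons do not use, metastasis replicate 4 held 5 cells of the NK rule among 638, and the other 3 held none.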

How the results depend on the processing

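The number of genes called between lung metastasis and unchallenged lung was 1, and it was 2 with DESeq2 and 78 without a filter on low counts, where 71 of the 78 were lower in the metastasis. It was 0 where cells with a UMI of Trac, Trbc1 or Trbc2 were left out, which left 1 metastasis library whose spread was taken from the lung, 4 with all libraries that hold a cell of the rule and 3 with run as a term, both alternatives chosen after seeing the data. With run as a term, where 1 residual degree of freedom is left and the tissues differ within run 2 only, the 3 genes were Dct and Hes1, higher in the metastasis, and Hbb-bs, lower. Leaving out 1 library at a time gave 0 to 13 genes, with 13 without unchallenged lung replicate 6 and 0 without either metastasis library, when the lone library is assumed to vary like the lung. The cause of these changes was not tested. A minimum of 10 cells kept the same 5 libraries and is not counted. Dct kept its direction in 15 of 15 alternatives and passed in 12, with adjusted p from 8.97e-49 to 0.835. Ccl3 passed in 2 of 15 and Ccl4 in 1 of 15, both higher in the metastasis in all 15, with adjusted p of 0.0114 to 1.00 for Ccl3 and 0.0346 to 1.00 for Ccl4. Each of the 24 genes followed through the alternatives kept its direction wherever it was tested, and Hspa1b passed in 1 of 15. The lymphocyte share (metastasis minus lung, in percentage points) was -2.31, and leaving out 1 library moved it from -8.66 to 5.04, with the sign turned without metastasis replicate 4 (0.587), lung replicate 4 (0.822) or lung replicate 5 (5.04). It was -10.1 among NK and T cells only, -7.27 with a minimum of 10 lymphocytes and -0.82 with run as a block, the last chosen after seeing the data. The smallest p for this share over its alternatives was 0.6 by the exact permutation test. No paired analysis was possible because the libraries compared share only replicate number 4, and no comparison within run 3 was possible because no metastasis library of that run had 20 NK cells or lymphocytes. Shares of cells with a UMI moved with depth, and Ccl3 was seen in 61.5% of NK cells of lung replicate 4 without thinning against 35.6% at 1000 UMIs.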

Other observations

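NK cells of the 5 libraries carried Adamts14, a procollagen protease, among their leading genes, at a mean of 132 CPM over 5 libraries and 10.1 CPM in T cells of the same libraries. Spry2, an inhibitor of receptor tyrosine kinase signalling, was at 227 CPM against 23.9 CPM in T cells. Styk1 was at 122 CPM against 15.6 CPM. These genes were picked after their values were seen.

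The following gene pairs are descriptions over cells, which are not replicates. At 1000 UMIs, Klra8 was seen in 48.2%, 68.0% and 26.4% of cells with Klra4 in lung replicates 4, 5 and 6, and in 34.5%, 25.5% and 18.0% of those without it. In metastasis replicate 4 the shares were 53.3% and 29.8%. In metastasis replicates 1 to 3, with 24 cells at this depth, they were 30.0% and 64.3%, and 50.0% and 55.6% at full depth. The close copies of this family could share reads. Eomes and Tbx21 were seen together in 19 of 505 cells of lung replicate 4, where Eomes alone was seen in 111 and Tbx21 alone in 62. At full depth both were seen in 186 of 514, Eomes alone in 142 and Tbx21 alone in 85. Of cells with Eomes at full depth, 56.7%, 62.9% and 36.6% in lung replicates 4, 5 and 6 had Tbx21. Of those without Eomes, 45.7%, 50% and 19.9% had it. The shares with and without Eomes were 25% and 30.8% in metastasis replicates 1 to 3, and 56.7% and 56.25% in metastasis replicate 4.

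In metastasis replicate 5, 20 of the 4005 UMIs in the 2 NK cells were of Dct (4994 CPM), above the 200 and 378 CPM in the metastasis libraries compared.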
